A study of Mus musculus with 10 samples.

Results

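Acyl-CoA thioesterases (Acot genes) were followed in primary mouse hepatocytes that had been given medium from cultured fat cells. The genes described are Acot1, Acot2, Acot3, Acot4, Acot5, Acot6, Acot7, Acot8, Acot9 and Acot12. They were chosen by gene name, with earlier results of these data known, and are 10 of the 56748 genes in the deposited tables. Acot10, Acot11 and Acot13 are given apart, among related enzymes. Hepatocytes of wild-type mice were kept overnight in conditioned medium from starved adipocytes, and their polyadenylated RNA was sequenced. The adipocytes had been grown from stromal vascular cells of inguinal fat of male mice after 6 months of an obesogenic diet. In the group Mttp_flox_CM the fat donors were Mttpf/f mice, whose Mttp alleles are floxed, and in Mttp_KO_CM they were A-Mttp-/- mice, which lack Mttp in adipose tissue. The protein made from Mttp transfers triglyceride within the endoplasmic reticulum and is needed to build lipoproteins that carry apolipoprotein B. Both media came from cells that had spent 3 days in a cocktail of IBMX, insulin, dexamethasone, indomethacin and 1 µM rosiglitazone, an agonist of PPARγ. The hepatocytes carried no deletion in either group. The labels give 3 fat donors without saying whether that is the number per genotype, and they give neither the Cre driver nor the age and sex of the hepatocyte donors. Each group has 5 libraries, and nothing in the labels says that they are separate cultures, so p-values measure only how much these libraries vary, and that variation may be technical.

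Acyl-CoA thioesterases split an activated fatty acid, an acyl-CoA, into the free fatty acid and coenzyme A. The type I enzymes Acot1 to Acot6 are close relatives with an α/β-hydrolase fold, placed in the cytosol (Acot1), the mitochondrion (Acot2) and the peroxisome (Acot3 to Acot6). The type II enzymes share the function but not the fold, and here comprise Acot7 and Acot12 of the cytosol, Acot8 of the peroxisome and Acot9 of the mitochondrion. In mouse liver, fasting and agonists of PPARα, the nuclear receptor that the title of the series names, are known to raise several type I genes.

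Mttp_flox_CM libraries held between 14199798 and 15950530 counts, and Mttp_KO_CM libraries between 14283517 and 17178131. Log2 levels of libraries of 1 group correlated at 0.991 to 0.993 across genes, and no library stood apart. In each group 1 library has a column number that no label gives, and it is called the unnumbered library. Levels of 1 gene across libraries are given as CPM (counts scaled to library size with TMM, the trimmed mean of M values), and levels of different genes are set side by side as the authors' FPKM (fragments scaled to gene length and library size). A change is the log2 ratio of Mttp_KO_CM to Mttp_flox_CM from edgeR's quasi-likelihood fit, and a gene rose or fell where the p-value, adjusted over all genes tested by the Benjamini-Hochberg method, was below 0.05.

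Of the 10 Acot genes, 9 rose in hepatocytes given Mttp_KO_CM medium and none fell. Among all 14183 genes tested, 18.2% rose and 18.1% fell, 36.4% in all, and the median change was 0.00. In order of fitted change the genes that rose were Acot3, Acot1, Acot5, Acot2, Acot4, Acot12, Acot6, Acot8 and Acot7, and on the log2(FPKM + 1) scale, which shrinks low genes, they were Acot1, Acot2, Acot3, Acot4, Acot5, Acot12, Acot7, Acot8 and Acot6. For each of these 9 the groups did not overlap, every Mttp_KO_CM library lying above every Mttp_flox_CM library, as for 13.0% of all genes tested. The groups were also apart for Acot9 in CPM, in the other direction, as for 12.7% of all genes tested, though its FPKM values overlapped. In either direction 25.7% of all genes tested had groups that did not overlap. Acot3 and Acot5 were under the filter's minimum of 10 counts in every Mttp_flox_CM library. They thus entered the test through the group in which they are high, which favours groups that do not overlap. Of the other 8 Acot genes, 7 rose, and the groups of these 7 did not overlap. The median change of the 8 was 0.61 on the log2 scale. Of the 8, 3 (Acot1, Acot2 and Acot4) rose at least 2-fold, against 1.06% of all genes tested. That share still holds genes that entered the test through 1 group alone. The Acot genes were chosen with earlier results of these data known, so the shares beside them are a description and not a test. The count of 0 that fell was the same in edgeR, DESeq2 and limma, and Acot9 alone was lower at an unadjusted p under 0.05 in edgeR's fit across all genes. Without the 2 unnumbered libraries, 9 rose and 0 fell. In bulk RNA, fewer cells of a type and less RNA per cell cannot be told apart.

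**Figure D1:**
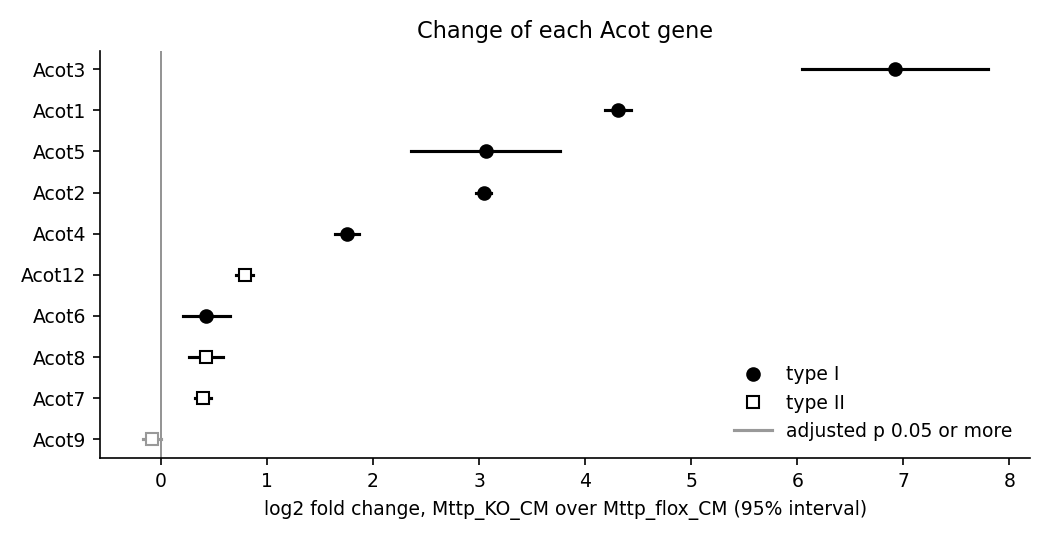
Log2 fold change of each Acot gene, Mttp_KO_CM over Mttp_flox_CM, with its 95% interval from the edgeR fit of 5 against 5 libraries. Filled circles are type I and open squares type II genes, and the grey symbol is Acot9, whose adjusted p was 0.05 or more. The type I changes run from 0.43 (Acot6) to 6.92 (Acot3), and the type II changes from -0.09 (Acot9) to 0.79 (Acot12).

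Acot1 and Acot2 are neighbours on chromosome 12 and hydrolyse long-chain acyl-CoAs, Acot1 in the cytosol and Acot2 in the mitochondrial matrix. Acot1 (ENSMUSG00000072949) lies at chr12:84056264-84065145 on the plus strand of GRCm39, and Acot2 (ENSMUSG00000021226) at chr12:84034635-84040647 on the same strand. For libraries 1, 2, 3, 4 and the unnumbered library, Acot1 stood at 22.7, 22.5, 18.9, 26.9 and 27.1 CPM in Mttp_flox_CM and at 489, 454, 456, 461 and 481 CPM in Mttp_KO_CM. The lowest Mttp_KO_CM library was thus far above the highest Mttp_flox_CM library, and the Mttp_flox_CM libraries differed more among themselves in proportion. The means were 23.6 ± 3.45 and 468 ± 15.7 CPM (SD, n = 5 each), a change of 4.31 (SE 0.0588, edgeR adjusted p = 9.2e-26). Acot2 read 51.4, 58.2, 55.1, 57.9 and 58.3 CPM in the same order in Mttp_flox_CM, and 481, 461, 438, 464 and 471 CPM in Mttp_KO_CM. Again the groups were apart, with Mttp_flox_CM library 1 and Mttp_KO_CM library 3 the lowest of their groups. Its change was 3.04 (SE 0.0357, edgeR adjusted p = 1.5e-26), an 8.24-fold rise. Among all genes tested, ordered by fitted log2 change from the largest rise, Acot1 was number 4 and Acot2 number 12.

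In FPKM, Acot1 went from 6.00 ± 0.883 to 119 ± 3.91 and Acot2 from 25.4 ± 1.37 to 209.8 ± 7.21 (SD, n = 5 each). Acot1 FPKM was 0.236 ± 0.0302 of Acot2 FPKM in Mttp_flox_CM, with libraries between 0.192 and 0.261. In Mttp_KO_CM it was 0.566 ± 0.0123 of Acot2 FPKM, with libraries between 0.552 and 0.583, so the ratios of the groups did not overlap. The size of the ratio depends on the length used, since the authors' gene length is 3919 bases for Acot1 and 2196 for Acot2, while 1 GENCODE M21 transcript of each, that with the longest coding part, has 2272 and 2196 bases. Per base of those transcripts the ratio was 0.406 ± 0.0520 in Mttp_flox_CM and 0.977 ± 0.0211 in Mttp_KO_CM, with libraries of the pair overlapping in Mttp_KO_CM.

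The type I genes are similar enough that short reads can match more than 1 of them, and 2 stretches of their coding sequence are printed to show where they can and cannot be separated. The coding sequences of Acot1 and Acot2 are 95.6% identical, with a longest shared run of 273 bases from coding base 887 to 1159 of Acot1. Other pairs of type I genes are 78.6% to 87.0% identical. The first stretch covers coding bases 134 to 193 of Acot1, counted from the A of the start codon, with bases that differ from Acot1 in capitals. Sequences were read from GENCODE M21 transcripts (GRCm38).
Acot1: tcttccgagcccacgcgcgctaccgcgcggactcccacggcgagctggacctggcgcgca
Acot2: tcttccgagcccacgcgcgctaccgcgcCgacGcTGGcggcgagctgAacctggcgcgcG
Acot3: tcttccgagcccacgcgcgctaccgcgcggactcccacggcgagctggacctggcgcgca
Acot4: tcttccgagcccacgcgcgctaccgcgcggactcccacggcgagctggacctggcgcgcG
Acot5: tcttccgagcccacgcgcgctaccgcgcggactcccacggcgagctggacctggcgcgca
Acot6: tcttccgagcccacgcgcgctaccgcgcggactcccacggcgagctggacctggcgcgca

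Here Acot3, Acot5 and Acot6 match Acot1 at all 60 bases, Acot4 differs at 1 base and Acot2 at 7. The second stretch covers coding bases 7 to 66, and here every gene differs from Acot1.
Acot1: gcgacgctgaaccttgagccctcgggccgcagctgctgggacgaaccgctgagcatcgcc
Acot2: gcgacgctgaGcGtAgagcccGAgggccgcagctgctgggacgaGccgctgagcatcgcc
Acot3: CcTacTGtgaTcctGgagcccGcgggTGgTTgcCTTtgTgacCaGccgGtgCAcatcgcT
Acot4: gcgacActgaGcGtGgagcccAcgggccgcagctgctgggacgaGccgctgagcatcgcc
Acot5: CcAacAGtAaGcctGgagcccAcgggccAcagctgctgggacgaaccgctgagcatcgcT
Acot6: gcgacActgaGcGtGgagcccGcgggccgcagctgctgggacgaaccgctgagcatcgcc

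In this second stretch the differences from Acot1 number 6 in Acot2, 21 in Acot3, 6 in Acot4, 10 in Acot5 and 5 in Acot6. Over whole transcripts, 32.7% of the 50-base windows of Acot1 occur in a transcript of another gene, most often Acot2, and 12.2% of the 150-base windows do. For Acot2 the shares are 27.7% and 10.2%, for Acot3 19.1% and 10.7%, most often with the overlapping gene Gm49366 rather than a type I gene (10.97% and 8.09%), and for Acot5 22.1% and 3.04%. They are lower for Acot4, at 4.74% and 0%, and for Acot6, at 3.77% and 0.160%. Acot9 shares 20.2% of its 50-base windows with the related gene Acot10 and none of its 150-base windows, and Acot7, Acot8 and Acot12 share none of either length. How reads that match several genes were counted is not given in the sources used here, so the division of counts among Acot1, Acot2, Acot3 and Acot5 is uncertain. The sum over Acot1 to Acot6 does not depend on that division among the 6 genes, though it would lack any reads left uncounted for matching several genes. It was 103 ± 6.15 CPM in Mttp_flox_CM and 1019 ± 31.0 CPM in Mttp_KO_CM (SD, n = 5 each), or 9.90-fold higher. Tested as 1 gene in the same edgeR fit, the sum changed by 3.31 on the log2 scale (SE 0.0341, adjusted p = 1.4e-27).

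Acot3, Acot4, Acot5 and Acot6 encode peroxisomal enzymes. Acot3 and Acot5 act on long- and medium-chain acyl-CoAs, Acot4 on succinyl-CoA and other dicarboxylyl-CoAs, and Acot6 on methyl-branched acyl-CoAs. The 4 genes follow Acot1 on the plus strand of chromosome 12, in the order Acot4 (84085153 to 84095375), Acot3 (84098918 to 84107176), Acot5 (84116099 to 84122794) and Acot6 (84147428 to 84158123).

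Acot3 (ENSMUSG00000021228) went from a trace to a clearly counted transcript. For libraries 1, 2, 3, 4 and the unnumbered library it had 1, 4, 1, 5 and 2 counts in Mttp_flox_CM and 304, 259, 410, 326 and 349 counts in Mttp_KO_CM. The levels were 0.169 ± 0.114 and 21.6 ± 2.88 CPM (SD, n = 5 each). With 13 counts in all of Mttp_flox_CM and 1648 in all of Mttp_KO_CM, the scaled ratio was 127, with an exact 95% interval of 74.0 to 239 that covers counting error only. The fitted change was 6.92 (SE 0.423, edgeR adjusted p = 6.1e-19), the largest of all genes tested. Its size depends on how the few Mttp_flox_CM counts are treated: it was 6.17 with a prior count of 2 and 2.78 on the log2(FPKM + 1) scale.

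Acot5 (ENSMUSG00000042540) was the other gene with few counts. It had 8, 4, 4, 3 and 4 counts in Mttp_flox_CM and 34, 47, 41, 46 and 29 counts in Mttp_KO_CM, in the same library order. Library 1 of Mttp_flox_CM held the most of its group, and still fewer than any Mttp_KO_CM library. The levels were 0.307 ± 0.145 and 2.59 ± 0.510 CPM, and the scaled ratio of summed counts was 8.58 (exact 95% interval 5.55 to 13.8, counting error only). The change was 3.06 (SE 0.340, edgeR adjusted p = 4.6e-09), and 1.16 on the log2(FPKM + 1) scale.

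Acot4 (ENSMUSG00000052392) was well counted in every library. Its levels were 16.1, 16.8, 14.9, 18.4 and 14.7 CPM in Mttp_flox_CM and 56.0, 52.1, 54.4, 55.2 and 55.6 CPM in Mttp_KO_CM. The groups were apart, with library 2 the lowest of Mttp_KO_CM. The means were 16.2 ± 1.50 and 54.7 ± 1.55 CPM (SD, n = 5 each), a change of 1.76 (SE 0.0561, edgeR adjusted p = 2.4e-18).

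Acot6 (ENSMUSG00000043487) had the smallest change of the type I genes. It ranged from 5.69 to 7.43 CPM in Mttp_flox_CM and from 7.71 to 9.53 CPM in Mttp_KO_CM, so that the highest and lowest libraries of the groups nearly met. The means were 6.40 ± 0.718 and 8.59 ± 0.720 CPM (SD, n = 5 each), with a change of 0.43 (SE 0.107, edgeR adjusted p = 0.0026).

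**Figure D2:**
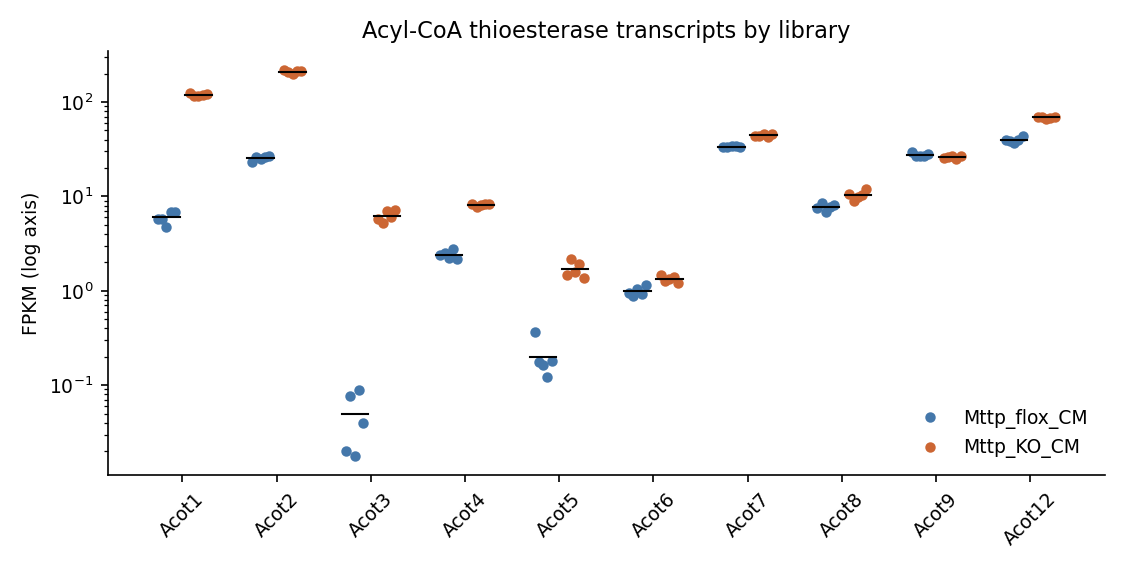
FPKM of each Acot gene on a log axis, 1 point per library and a black line at the mean of each group of 5 libraries. Acot1 to Acot5 are separated widely between the groups, Acot6, Acot7, Acot8 and Acot12 by less, and for Acot9 the FPKM values of the groups overlap.

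Among the type II genes Acot12, the cytosolic acetyl-CoA hydrolase of the liver, changed most. Acot12 (ENSMUSG00000021620) lies at chr13:91889631-91934267 on the plus strand. It stood at 130, 129, 121, 132 and 145 CPM in libraries 1 to 4 and the unnumbered library of Mttp_flox_CM, and at 231, 231, 216, 224 and 231 CPM in Mttp_KO_CM. The unnumbered library was the highest of Mttp_flox_CM and still below every Mttp_KO_CM library. Means of 131 ± 8.75 and 227 ± 6.54 CPM (SD, n = 5 each) gave a change of 0.79 (SE 0.0378, edgeR adjusted p = 1.4e-14).

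Acot7, a long-chain acyl-CoA thioesterase best known from brain (ENSMUSG00000028937, chr4:152262591-152356312, plus strand), ranged from 70.6 to 73.2 CPM in Mttp_flox_CM and from 89.6 to 98.7 CPM in Mttp_KO_CM. It changed by 0.39 (SE 0.0370, edgeR adjusted p = 4.9e-09). Acot8, a peroxisomal thioesterase with a broad choice of substrates (ENSMUSG00000017307, chr2:164634685-164646802, minus strand), ranged from 13.6 to 16.9 CPM and from 17.7 to 24.3 CPM. It changed by 0.43 (SE 0.0789, edgeR adjusted p = 1.2e-04). The unnumbered library was the highest of Mttp_KO_CM for Acot8, and without it the change was 0.36 (edgeR adjusted p = 6.8e-04).

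Acot9, a mitochondrial thioesterase (ENSMUSG00000025287, chrX:154045439-154080650, plus strand), was the only one of the 10 genes described without a call. Its levels were 67.0, 61.3, 61.1, 61.1 and 63.7 CPM in Mttp_flox_CM and 58.1, 59.2, 60.9, 56.4 and 61.1 CPM in Mttp_KO_CM. In CPM the groups just missed each other, and in FPKM they overlapped. The change was -0.09 (SE 0.0411, 95% interval -0.17 to -0.00209, edgeR adjusted p = 0.11). With library size as the only scaling, which shifts the median of all genes to -0.04, Acot9 was at -0.13 with an edgeR adjusted p of 0.016. Over all alternatives it lay between -0.13 and -0.07, with adjusted p-values from 0.016 to 0.24.

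In the authors' FPKM, the order of the genes differed between the media. In Mttp_flox_CM, Acot12 was first with 39.6 ± 2.69 FPKM, followed by Acot7 with 33.7 ± 0.507, Acot9 with 27.5 ± 1.11 and Acot2 with 25.4 ± 1.37 FPKM. Below these came Acot8 with 7.71 ± 0.608 and Acot1 with 6.00 ± 0.883 FPKM, whose libraries overlapped, then Acot4 with 2.41 ± 0.225, Acot6 with 0.991 ± 0.112, Acot5 with 0.201 ± 0.0945 and Acot3 with 0.0490 ± 0.0330 FPKM. In Mttp_KO_CM, Acot2 and Acot1 were first, followed by Acot12 with 68.5 ± 1.96, Acot7 with 44.3 ± 1.77, Acot9 with 25.9 ± 0.859 and Acot8 with 10.4 ± 1.17 FPKM. Acot4 with 8.15 ± 0.228, Acot3 with 6.25 ± 0.831, Acot5 with 1.70 ± 0.335 and Acot6 with 1.33 ± 0.112 FPKM closed that order. Only Acot8 and Acot1 in Mttp_flox_CM, and Acot5 and Acot6 in Mttp_KO_CM, were neighbours in the order whose libraries overlapped. With transcript length in place of gene length, Acot2 and Acot1 overlapped in Mttp_KO_CM, and Acot6 stood above Acot5 there with 2.52 ± 0.211 against 1.70 ± 0.335. On that scale Acot7 and Acot12 changed places in Mttp_flox_CM, with overlapping libraries. On both scales Acot3 was last in Mttp_flox_CM and above Acot5 and Acot6 in Mttp_KO_CM.

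The summed FPKM of the 10 genes was 144 ± 4.58 in Mttp_flox_CM and 495 ± 12.4 in Mttp_KO_CM (SD, n = 5 each), 3.45-fold higher. Type I genes held 24.4% ± 0.891 of the sum in Mttp_flox_CM and 69.9% ± 0.625 in Mttp_KO_CM, and with transcript length 22.5% ± 0.894 and 69.8% ± 0.653. Acot2 alone held 17.7% ± 0.796 and 42.4% ± 0.699, and Acot1 held 4.17% ± 0.496 and 24.0% ± 0.294. The share of Acot4 was 1.68% ± 0.157 and 1.65% ± 0.0401, so its level kept pace with the sum. Acot12 held 27.6% of the sum in Mttp_flox_CM and 13.8% in Mttp_KO_CM although its own level rose, and Acot7 held 23.5% and 8.95%. Type II genes summed to 282 ± 9.53 and 401 ± 8.98 CPM, 1.42-fold higher in Mttp_KO_CM, against 9.90-fold for the type I sum.

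**Figure D3:**
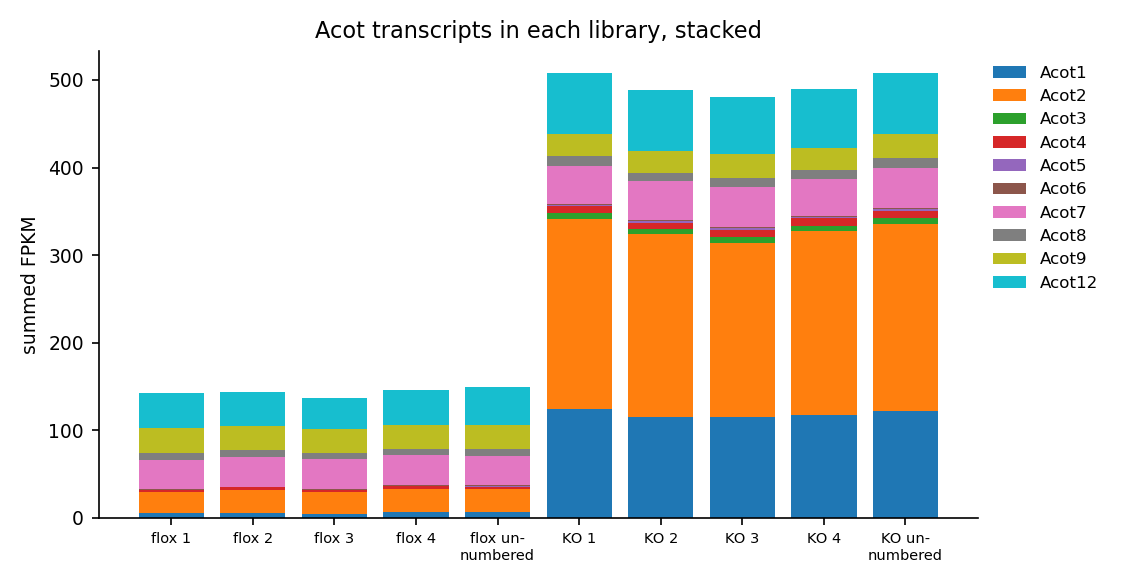
Summed FPKM of the 10 Acot genes in each library, stacked by gene, with the axis starting at 0. The Mttp_flox_CM bars (left) reach 137 to 149.8 FPKM and the Mttp_KO_CM bars 480.2 to 508 FPKM, and Acot1 and Acot2 make up most of the Mttp_KO_CM bars.

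The 6 type I genes span 123.5 kb, and the genes around them did not share their rise as a block. Within 200 kb of the span lie 21 other genes, of which 8 were expressed enough to test. Of these, 3 rose and 1 fell, where 18.2% and 18.1% of all genes tested did. The nearest protein-coding gene before Acot2 that was tested is Riox1, a ribosomal oxygenase, with a change of 0.43 (SE 0.0926, edgeR adjusted p = 6.9e-04). Papln, an extracellular matrix protein at 1.26 ± 0.450 and 2.69 ± 0.438 CPM, rose by 1.08 (SE 0.232, edgeR adjusted p = 5.0e-04). On the other side of Acot6, Mideas fell by 0.26 (SE 0.0489, edgeR adjusted p = 1.5e-04). Dnal1, the next gene after Acot6, stood at -0.23 (SE 0.134), Numb, an inhibitor of Notch signalling, at -0.02 (SE 0.0462), Ptgr2 at 0.03 (SE 0.0520) and the pseudogene Gm5436 at -0.18 (SE 0.268), none of them called.

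The remaining gene that rose, the long noncoding RNA 4732463B04Rik, lies on the minus strand across Acot4 and Acot3. It had 99 counts in all of Mttp_flox_CM and 336 in all of Mttp_KO_CM, a change of 1.77 (SE 0.212, edgeR adjusted p = 1.6e-07). Whether counting used strand is not given in the sources used here, so reads of this RNA and of Acot4 or Acot3 where they overlap cannot be told apart. A protein-coding gene on the plus strand, Gm49366, covers parts of Acot4 and Acot3 and had 0 counts in every library. How reads that match both Gm49366 and Acot3 were counted is not given. The 0 counts therefore do not show that Gm49366 was silent, and Acot3 may lack such reads. At the other loci, Snx21 overlaps the end of Acot8 by 1052 bases on the opposite strand and fell by 0.24 (SE 0.0868, edgeR adjusted p = 0.031), while Acot8 rose. The antisense RNA 4833422C13Rik overlaps the start of Acot12 by 361 bases and rose by 0.94 (SE 0.132, edgeR adjusted p = 2.8e-06), from 4.11 ± 0.595 to 7.86 ± 1.11 CPM.

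**Figure D4:**
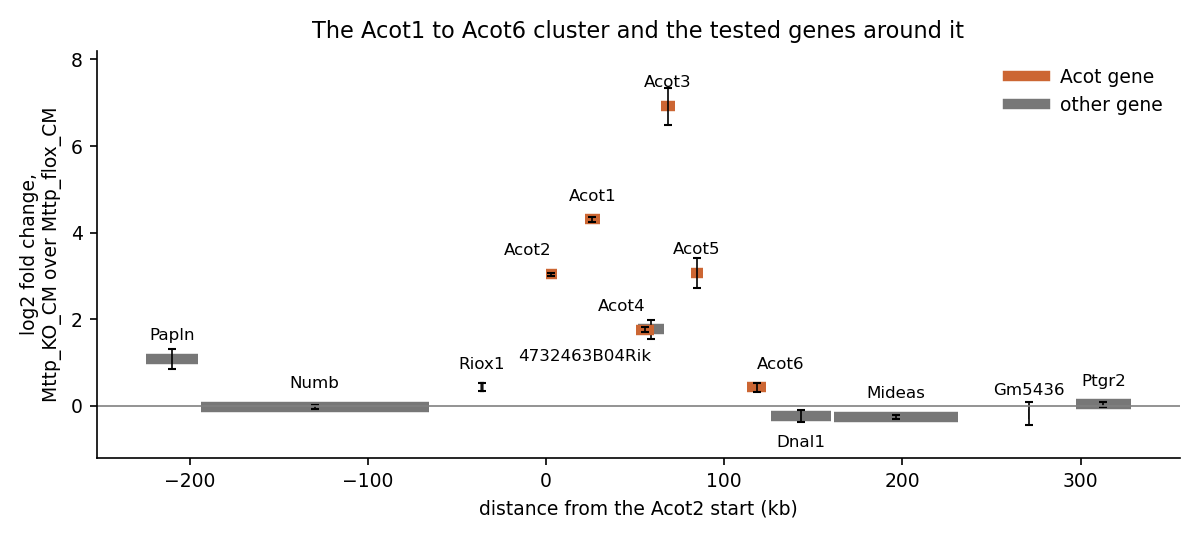
Log2 fold change (Mttp_KO_CM over Mttp_flox_CM, bars of 1 SE) of each tested gene within 200 kb of the Acot1 to Acot6 span, plotted against distance in kb from the Acot2 start, with bar width to scale. Acot1 to Acot5 and 4732463B04Rik lie above 1.7, Acot6 at 0.43, and the flanking genes between -0.26 and 1.08.

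PPARα binds DNA as a pair with RXR at direct repeats of AGGTCA spaced by 1 base. Both copies of AGGTCA with 1 base of any kind between them were searched on both strands in the 250 bases before the start of 9 Acot genes that have an entry in RefSeq's promoter table (GRCm38.p6), and the position with the fewest mismatches was kept. Of 32851 such windows over all genes, 0.0335% hold the repeat exactly, 0.484% with at most 1 mismatch, 3.24% with at most 2 and 21.3% with at most 3. The closest match was in Acot12, with 1 mismatch, followed by Acot4 with 2, and Acot2 and Acot5 with 3. The best match had 4 mismatches in Acot1, Acot3 and Acot9 and 5 in Acot7 and Acot8. Acot12 thus had the closest match, and Acot3 and Acot1 had the largest fitted changes. Whether matches and changes go together was not tested. The windows of the closest matches, Acot12 and Acot4, and of the genes that changed most, Acot1 and Acot3, are printed 5′ to 3′ on the gene's strand, with a match of at most 3 mismatches in capitals.
Acot12 (chr13:91741271-91741520, plus strand): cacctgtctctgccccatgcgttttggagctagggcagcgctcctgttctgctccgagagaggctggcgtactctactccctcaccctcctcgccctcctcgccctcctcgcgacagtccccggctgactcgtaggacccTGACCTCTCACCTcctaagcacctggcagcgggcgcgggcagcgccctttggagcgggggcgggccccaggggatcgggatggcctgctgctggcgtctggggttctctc
Acot4 (chr12:84038129-84038378, plus strand): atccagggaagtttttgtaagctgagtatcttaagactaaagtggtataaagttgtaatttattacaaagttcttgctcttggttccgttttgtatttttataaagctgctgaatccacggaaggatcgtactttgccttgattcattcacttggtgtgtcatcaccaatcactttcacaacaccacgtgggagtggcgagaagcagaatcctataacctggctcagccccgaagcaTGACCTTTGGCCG
Acot1 (chr12:84009252-84009501, plus strand): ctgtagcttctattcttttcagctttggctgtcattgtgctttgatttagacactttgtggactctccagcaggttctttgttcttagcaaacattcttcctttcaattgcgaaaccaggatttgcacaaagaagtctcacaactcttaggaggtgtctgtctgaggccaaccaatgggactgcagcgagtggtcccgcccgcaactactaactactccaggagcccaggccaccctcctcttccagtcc
Acot3 (chr12:84051901-84052150, plus strand): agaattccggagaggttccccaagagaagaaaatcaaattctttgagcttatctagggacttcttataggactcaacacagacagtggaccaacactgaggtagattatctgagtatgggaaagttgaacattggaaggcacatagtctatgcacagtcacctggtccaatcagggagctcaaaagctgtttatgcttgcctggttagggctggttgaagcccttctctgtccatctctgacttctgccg

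The match lies 110 to 98 bases before the start in Acot12 and 13 to 1 bases before it in Acot4, both on the strand opposite to the gene. These matches are letters in a window and say nothing about binding, which was not measured here, and a window without one says nothing about binding outside it.

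Of 14 related enzymes that release or transfer acyl groups, 11 were tested, 2 rose and 2 fell, with a median change of -0.01. These shares are those of all genes tested, of which 18.2% rose and 18.1% fell. Them4, a mitochondrial thioesterase, rose by 0.47 (SE 0.0705, edgeR adjusted p = 9.2e-06), and Hibch, which hydrolyses 3-hydroxyisobutyryl-CoA in valine breakdown, by 0.24 (SE 0.0448, edgeR adjusted p = 1.2e-04). Acnat2, a peroxisomal acyltransferase, fell by 1.27 (SE 0.0748, edgeR adjusted p = 5.8e-13), from 44.7 ± 5.30 to 18.5 ± 1.81 CPM. Baat, which joins bile acids to amino acids and belongs to the same structural family as the type I thioesterases, fell by 0.53 (SE 0.0524, edgeR adjusted p = 1.1e-08). The hotdog-fold thioesterase Acot13 stood at 0.12 (95% interval 0.0153 to 0.217, adjusted p = 0.067) and Acot11, known from brown fat, at -0.18 (95% interval -0.55 to 0.19), neither called. Ppt1, Ppt2, Them6, Them7 and Acnat1 lay between -0.10 and 0.25 and were not called. Them5 and Olah had 0 counts in every library, and Acot10 had 1 count in Mttp_flox_CM and 3 in Mttp_KO_CM.

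Genes on either side of the thioesterase step were taken from lists of known function, and the genes named are those of highest mean CPM in each list. Of 17 tested acyl-CoA synthetases, which make the substrates of the thioesterases, 8 rose and 2 fell, with a median of 0.20. Acsl1, the long-chain synthetase that feeds oxidation in liver, rose by 2.02 (SE 0.0335, edgeR adjusted p = 1.2e-23) and the transporter and synthetase Slc27a2 by 0.86 (SE 0.0401, edgeR adjusted p = 8.7e-15). Acsl5 stood at 0.03 (SE 0.0359) and was not called. The count that fell was 1 without the unnumbered library of Mttp_flox_CM or without library 3 of Mttp_KO_CM.

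Of 18 tested genes for acyl-CoA binding and transport into mitochondria and peroxisomes, 14 rose and 1 fell, with a median of 0.49. Cpt1b, the muscle form of Cpt1, was under 10 counts in every Mttp_flox_CM library, and of the other 17 genes 13 rose, with a median of 0.46. Abcd3, which carries long-chain and dicarboxylic acyl-CoAs into peroxisomes, rose by 1.39 (SE 0.0289), Cpt2 by 1.03 (SE 0.0388), Crot by 0.99 (SE 0.0529) and Cpt1a, the entry step for mitochondrial oxidation, by 0.85 (SE 0.0270), each with an edgeR adjusted p at or below 1.3e-13. Scp2 rose by 0.40 and Acbd5 by 0.29.

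Of 11 tested genes that make or recycle coenzyme A, the product the thioesterases set free, 7 rose and 0 fell, with a median of 0.19. Ppcs rose by 1.02 (SE 0.0503), the peroxisomal coenzyme A hydrolase Nudt7 by 0.75 (SE 0.0524), the pantetheinase Vnn1 by 0.71 (SE 0.0482) and Pank1 by 0.58 (SE 0.0490), with edgeR adjusted p-values at or below 7.9e-10. Pank3 rose by 0.13, and Coasy at 0.06 was not called.

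The route that makes dicarboxylic acids, whose peroxisomal products include the substrates of Acot4, was the list with the largest median. Of its 14 tested genes 13 rose and 0 fell, with a median of 1.38. Cyp4a14, an omega-hydroxylase, rose by 3.75 (SE 0.0632, edgeR adjusted p = 2.8e-23), the peroxisomal bifunctional enzyme Ehhadh by 2.24 (SE 0.0431), the thiolase Acaa1b by 1.98 (SE 0.0514) and Aldh3a2 by 0.71 (SE 0.0285). For the coenzyme A and dicarboxylic acid lists, which had 0 genes that fell in edgeR, DESeq2 and limma also gave 0 and at an unadjusted p under 0.05 edgeR gave 0 in each.

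Transcripts of PPARα and its partners changed in both directions, with 4 of 12 higher and 4 lower and a median of 0.02. Ppara itself rose by 0.33 (SE 0.0549, edgeR adjusted p = 2.9e-05), from 56.1 ± 3.35 to 70.8 ± 6.50 CPM. Its partner Rxra at 0.05 (SE 0.0297) and Rxrb at -0.01 (SE 0.0464) were not called. The cofactors Nrip1 and Ncor1 rose by 0.14 and 0.10. The count that rose was 2 without the unnumbered libraries, and the count that fell was 2 without library 3, library 4 or the unnumbered library of Mttp_flox_CM, or without library 1 or 3 of Mttp_KO_CM.

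**Figure D5:**
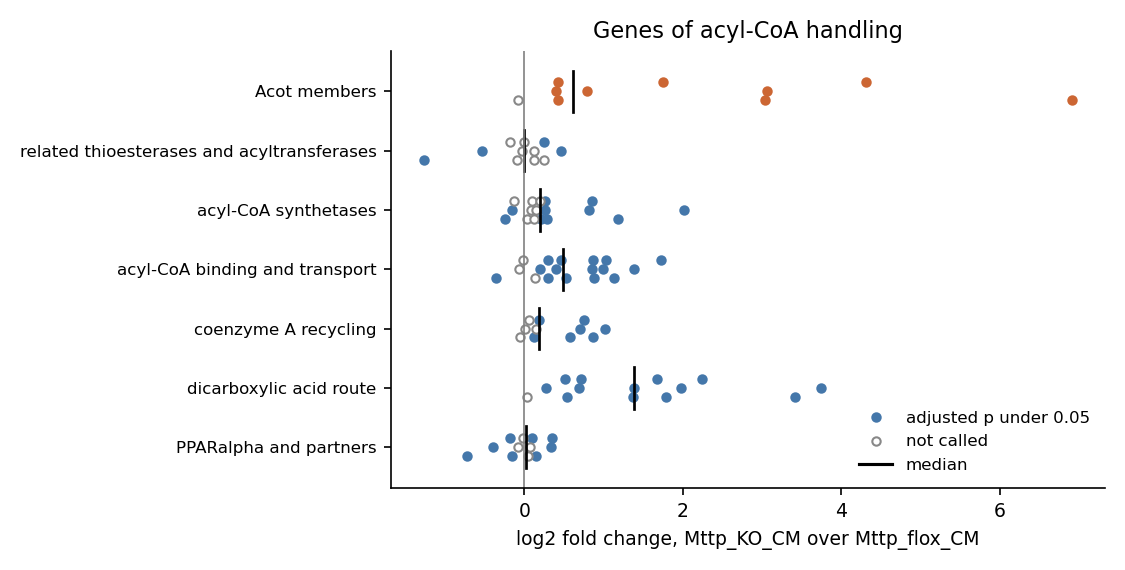
Log2 fold change (Mttp_KO_CM over Mttp_flox_CM) of each tested gene in the Acot family and in 6 lists of acyl-CoA handling, with filled points for an adjusted p under 0.05, open points for genes not called and a black line at the median, which for the Acot genes (orange) leaves out Acot3 and Acot5. That median is 0.61, the dicarboxylic acid route has 1.38, and the other lists lie between -0.01 and 0.49.

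To place each Acot gene among other transcripts, its 10-library profile of log2 CPM was centred on its own Mttp_flox_CM mean. It was compared by root mean square difference with those of 10603 genes with a mean of at least 5 CPM and a count in every library. All profiles share the same libraries and the same contrast, so likeness mainly means a change of similar size, and it is given as a description. Nearest to Acot1 were Fabp1, the liver fatty acid binding protein (0.365), Cyp4a14 (0.403) and Fbp2 (0.435), and nearest to Acot2 were G0s2, an inhibitor of the lipase ATGL (0.195), Pdk4, a kinase that holds back pyruvate oxidation (0.261), and Slc25a34 (0.308). Among the 3 genes nearest to Acot4 was the peroxisomal division factor Pex11a (0.113). Acot12 was nearest to Hacd3 (0.0559), Gpam, the first enzyme of glycerolipid synthesis (0.0593), and Ednrb (0.0615). The gene nearest to Acot3, Gm15441, differed by 1.16. Acot3 had only 1 to 5 counts in each Mttp_flox_CM library, so counting error enters its distance to every gene. Genes without a count in some library, which may be more like it, were not compared. The smaller changes had many near neighbours: Nrg1 (0.0752) for Acot6, Mat2a (0.0366) for Acot7, Slc16a5 (0.0906) for Acot8 and Limk2 (0.0328) for Acot9.

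The label hepatocyte was checked against markers. The 15 hepatocyte markers found summed to between 61411 and 64108 CPM in Mttp_flox_CM and between 50912 and 52957 CPM in Mttp_KO_CM, led by Alb, and 2 rose and 12 fell. Transcripts of other liver cells were present in both groups, and most of the tested markers were lower in Mttp_KO_CM. All 15 endothelial markers fell, with sums of 2516 to 2686 and 1442 to 1521 CPM, as did 9 of 11 tested stellate cell and fibroblast markers, with sums of 99.3 to 111 and 54.9 to 62.5 CPM. Of 15 macrophage markers 13 fell and 2 rose, with sums of 1207 to 1327 and 987 to 1073 CPM. Of 8 tested cholangiocyte markers 4 fell and 4 were not called, with sums of 573 to 635 and 318 to 385 CPM. Spp1 held most of the cholangiocyte sums, at 513 ± 23.5 CPM in Mttp_flox_CM and 283 ± 24.9 CPM in Mttp_KO_CM. Of 5 tested adipocyte markers 3 rose and 2 fell, with sums of 196 to 219 and 267 to 287 CPM, mostly from Fabp4 and Cidec, while Lep and Cfd had 0 counts in every library. The part of these markers in the changes of the Acot genes was not tested.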

How the data were processed

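RNA of 10 hepatocyte libraries, 5 per group, was sequenced after poly-A selection. Whole-number counts and FPKM values per gene and library were deposited by the authors. Reads were processed with HISAT2 2.0.5 and featureCounts 1.5.0-p3 on build GRCm39, per the submitters' processing notes. Not given in the sources used here are the annotation release, the strand setting and how a read matching several genes was counted. The authors' FPKM were proportional to count over gene length within a library, with 1 constant each, which implies library sizes of which the summed counts were 0.980 to 0.984 in Mttp_flox_CM and 1.00 to 1.01 in Mttp_KO_CM, a scaling the sources used here do not describe. All columns were used. Those of 8 libraries matched a label, and the letter in the other 2 names gave only the group.

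Counts were analysed with edgeR 4.0.16 in R 4.3.3: filterByExpr (minimum count 10, minimum total 15) kept 14183 of 56748 genes and 99.8% of counts, TMM scaled the libraries, and glmQLFit and glmQLFTest compared 5 with 5 libraries, with a prior count of 0.125 and an adjusted p under 0.05 as a call. The libraries held 14199798 to 17178131 counts each. On simulated data the model recovered 88 of 96 changes of 2-fold and 96 of 96 of 4-fold, with 9 false calls among 14050 genes. The simulation gave all genes the same dispersion and did not look at low counts apart, so it does not cover genes such as Acot3 and Acot5. Alternatives used RLE factors, library size alone, DESeq2 1.42.0, no filter, a filter of 1 CPM in 5 libraries, limma 3.58.1 on log2(FPKM + 1) and log2(FPKM + 0.1), each library left out, a block on the replicate number, a summed row for Acot1 to Acot6, and, added after seeing the data, no unnumbered libraries, a prior count of 2 and, for levels between genes, the length of 1 transcript in place of the authors' gene length. Coding sequences were aligned with Biopython 1.88. The genes and lists were chosen with earlier results of these data known. Named genes were all 10 members, every tested related thioesterase, the 6 genes of highest mean CPM in other lists and 2 in marker lists, all genes within 200 kb of the cluster, and the 3 genes nearest in profile to each member with a mean of at least 5 CPM. Cpt1b and the overlapping genes at other loci were named after their values were seen. Some genes that this rule takes are not reported here.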

Additional observations from a re-analysis of the deposited data

Results flagged for a closer look

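In Mttp_flox_CM, library 1 held 0.558 CPM of Acot5, far from the other 4 libraries of its group, which held between 0.186 and 0.273 CPM. The gap to the nearest library was 0.768 of the group's range, above Dixon's critical value of 0.710 for 5 values. The library had 8 counts of Acot5 and the others 3 or 4. Without it the Acot5 change was 3.37 on the log2 scale (edgeR adjusted p = 5.6e-09), beside 3.06 with it. It was the 1 such value in 36 groups of libraries checked, and chance gives about 1 in 20.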

How the results depend on the processing

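All 9 Acot genes that rose also rose under every one of the 20 alternatives. None of the 10 genes described fell under any of them except with library size alone, where 1, Acot9, did (log2 -0.13, edgeR adjusted p = 0.016). That scaling moved the median of all genes to -0.04 and the share of calls that were rises from 50.1% to 38.1%. The fold of the Acot1 to Acot6 sum lay between 9.74 and 10.1 with 1 library left out, and was 9.63 with library size alone. Leaving out 1 library gave Acot3 changes of 6.70 to 7.25 and Acot5 changes of 2.92 to 3.37. The same-numbered libraries of the 2 groups had deviations correlated at -0.00815 to 0.0609, and 2 of 4 libraries of Mttp_flox_CM correlated best with their own number. These values do not settle whether equal numbers mark pairs. The main fit did not take the numbers as pairs. With a replicate block on the numbered libraries, 2326 genes rose and 2325 fell, and 9 Acot genes rose and 0 fell, beside 2264 and 2307 genes without the block on the same libraries. The count of synthetases that fell was 1 rather than 2 in 6 alternatives, of genes for binding and transport that fell 2 rather than 1 in 1, of macrophage markers that rose 1 rather than 2 in 1, and of PPARα and partners 2 rather than 4 that rose in 3 and 2 rather than 4 that fell in 7. Transcript length in place of gene length put the summed level of the 10 genes at 179.7 rather than 144 in Mttp_flox_CM and at 622 rather than 495 in Mttp_KO_CM. For the list counts the cause was not tested. Acot3 and Acot5, with 13 and 23 counts in all of Mttp_flox_CM, are the changes least well sized, and the division of reads among Acot1, Acot2, Acot3 and Acot5 could not be checked without the reads.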
